A study of Mus musculus with 12 samples.

Results

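The genes described here are the chemokines and a group of fibroblast cytokines and inflammatory regulators in mouse embryonic fibroblasts (MEFs) with and without the mitochondrial deacetylase Sirt-3. They were chosen by symbol from the protein-coding genes of the expression table: every Ccl, Cxcl and Cx3cl1 gene, together with the interleukins Il1a, Il1b, Il6, Il11, Il15, Il18, Il33 and Il34, the cytokines Lif, Csf1, Csf2, Csf3, Tslp, Kitl and Tnf, and the inflammatory genes Ptgs2 and Nfkbia. The rule found 57 of the 34866 genes in the table. A mean of at least 1 TPM (a transcript level scaled for transcript length and for the total of its library) over the 12 libraries was reached by 25 of the 57, and these could be tested.

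Chemokines are small secreted proteins that guide leukocytes along a gradient by binding receptors coupled to G proteins. Fibroblasts are a known source of chemokines and of cytokines such as Lif, Il11 and Csf1, and in that role they recruit and sustain immune cells in injured tissue. Many of these genes are known targets of the transcription factor NF-kB, which the inhibitor encoded by Nfkbia holds in the cytoplasm until a stimulus leads to its degradation.

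Polyadenylated RNA of 12 cultures was sequenced, 3 from each of 4 groups, which the labels give as WT and KO for each sex. The WT groups are given as Sirt3+/+ and the KO groups as Sirt3-/-, all on the 129S1/SvImJ background. All 4 groups were MEFs from individual embryos 13 days old, sexed by PCR for Sry, immortalized by stable transfection with a plasmid for the SV40 T-antigen, and used at passage 6. RNA was taken 48 h after the cells had been seeded in triplicate. The number of lines behind each group is not stated, so effects of genotype, of sex and of the line itself cannot be told apart, and p-values measure the spread between these cultures alone. In bulk RNA, fewer cells that express a gene and less of its RNA per cell cannot be told apart.

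The deleted gene was read first. Sirt3 stood at 6.59 to 9.07 TPM in the male WT libraries and at 8.88 to 11 TPM in the labelled male KO libraries, against 7.40 to 8.69 TPM in the female WT and 7.57 to 9.06 TPM in the labelled female KO libraries. Its level was not lower in the libraries labelled KO in either sex, and gene-level TPM cannot tell an intact transcript from a truncated one. Within these RNA data, every direction given below for a KO group therefore rests on the label of its libraries. The study derived its KO cells from a knockout mouse stock and shows a representative immunoblot that includes Sirt3. Protein was not measured in the data used here. The Y-linked gene Ddx3y was at least 31.7 TPM in every male library and at most 0.218 TPM in every female library. Of 11 fibroblast markers, 10 had a mean of at least 1 TPM in every group, Lum being the exception, and their summed level ran from 8223 to 12700 TPM over the 12 libraries. The 14 leukocyte and macrophage markers summed to 8.86 to 15.9 TPM, most of it from Cd68 (3.95 to 9.93 TPM) and Cd14 (2.59 to 4.62 TPM), with the macrophage gene Adgre1 and Tyrobp at 0 in every library and Ptprc at most 0.116 TPM. Csf1r, the receptor of Csf1 and a macrophage marker, was at 0.165 to 0.287 TPM in male WT, 1.25 to 1.64 in labelled male KO and 0.0973 to 0.346 in the female libraries, and lay under the filter on low values. The 8 epithelial markers, mostly the keratin Krt19, moved with genotype and, in WT, with sex. They summed to 76.1 to 77.9 TPM in male WT, 7.91 to 8.87 in labelled male KO, 19.8 to 23.0 in female WT and 7.40 to 10.3 in labelled female KO libraries. The mean reached 1 TPM for 3 of the 8 in each WT group and for 1 in each labelled KO group. Krt19, Krt18 and Epcam fell in the labelled KO libraries of both sexes (limma, Benjamini-Hochberg adjusted p from 3.02e-06 to 0.0292). The fibroblast markers also moved with genotype, with 5 of the 10 tested higher in labelled male KO (10.7% of all genes tested), 8 higher in labelled female KO (all genes 5.63%) and 0 lower in either. The 8 endothelial markers summed to 2.01 to 4.30 TPM in male WT, 1.59 to 1.88 in labelled male KO, 5.07 to 6.07 in female WT and 2.09 to 2.86 in labelled female KO libraries, and Kdr, the only one tested, fell by 1.06 on the log2 scale in females (SE 0.13, limma adjusted p = 0.00368). The part of these cell type markers in the chemokine and cytokine results was not tested.

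Chemokine and cytokine genes changed in both sexes: Cxcl14, Cxcl12 and Ccl7 rose and Cxcl10 and Ptgs2 fell in the labelled KO libraries of males and females, while Ccl20 and Cxcl1 rose in males and Ccl2 in females. The male rise of Ccl7 no longer passed the test when any 1 male library was left out. Between labelled male KO and male WT libraries, 13 of the 25 tested members passed an adjusted p of 0.05 (limma on log2(TPM+1), Benjamini-Hochberg over all 12504 genes tested), which is 52.0% against 21.6% of all genes tested. Of these, 10 were higher in KO, where 10.7% of all genes were, and 3 were lower, where 10.9% were. Il15, among the 10, reached the filter on low values through the labelled KO libraries and was lost without it (limma adjusted p = 0.0694). Between labelled female KO and female WT libraries 7 of the 25 passed, or 28.0% against 11.5% of all genes, with 4 higher (all genes 5.63%) and 3 lower (all genes 5.84%). The median absolute difference of the 25 members was 0.63 in males against 0.17 over all genes tested, and 0.32 in females against 0.13, on the log2 scale. The median signed difference was 0.30 in males and -0.22 in females, against -0.02 over all genes in each sex. Differences on the log2(TPM+1) scale understate the change of genes with low TPM.

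**Figure D1:**
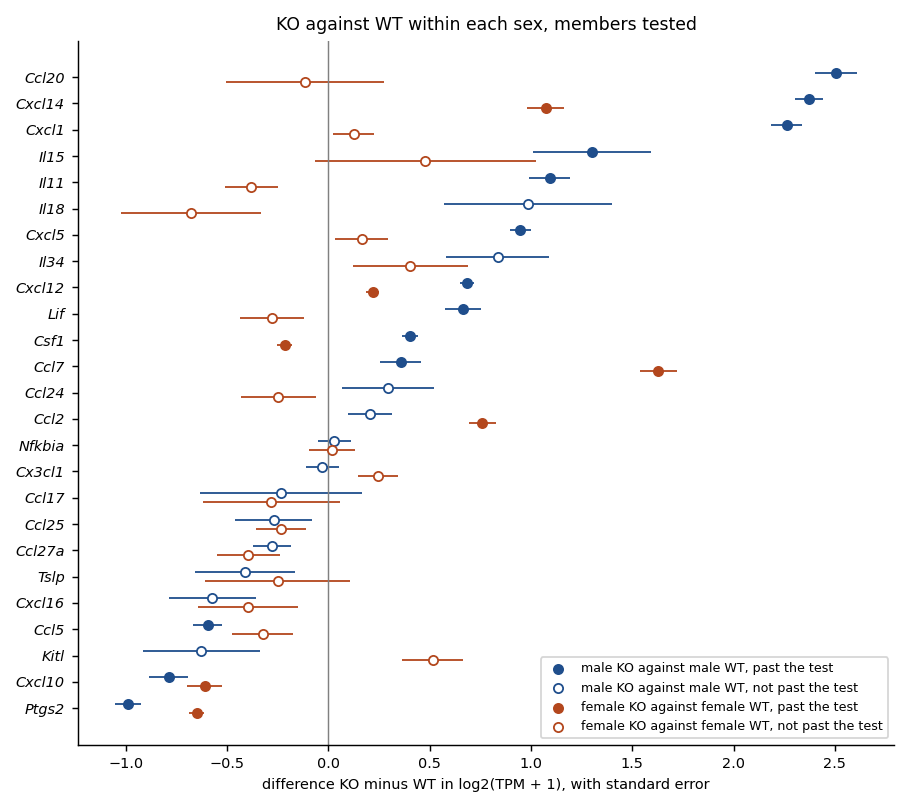
Difference between KO and WT in log2(TPM+1), with its standard error, for the 25 tested members in male (blue) and female (red) MEFs. Filled points passed the test: 13 in males, led by Ccl20, Cxcl14 and Cxcl1, and 7 in females, led by Ccl7 and Cxcl14.

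The sexes could be compared directly through the interaction term, the KO difference in males minus that in females. It passed for 11 of the 25 members, against 13.0% of all genes tested, with 8 more positive in males (all genes 6.70%) and 3 more negative in males (all genes 6.33%). Ccl20, Cxcl1, Cxcl5, Il11 and Lif were called in males alone and also passed this test. Ccl2 was called in females alone and passed it as well. Ccl5 and Il15 were called in males alone without passing the interaction test, so a difference between the sexes was not shown for them. Csf1 was called in opposite directions, while Ccl7, Cxcl10, Cxcl12, Cxcl14 and Ptgs2 were called in the same direction in both sexes. The male call of Ccl7 was lost in every fit without 1 library and the female call of Csf1 in some.

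The promoters of 7 members are shown because they include members that rose, fell or did not pass the test, so that a reader can set the sequence beside the values that follow. They are the 200 bases before the RefSeq transcription start on GRCm38.p6, 5′ to 3′ on the gene's strand, and capitals mark matches to the kB motif, the 10-letter binding motif of NF-kB, searched on both strands.
Cxcl1, chr5:90891045-90891244, plus strand: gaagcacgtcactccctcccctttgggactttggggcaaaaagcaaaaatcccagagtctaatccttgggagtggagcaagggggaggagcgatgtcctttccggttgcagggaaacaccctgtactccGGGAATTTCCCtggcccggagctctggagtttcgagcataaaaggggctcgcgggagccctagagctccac
Ccl20, chr1:83116566-83116765, plus strand: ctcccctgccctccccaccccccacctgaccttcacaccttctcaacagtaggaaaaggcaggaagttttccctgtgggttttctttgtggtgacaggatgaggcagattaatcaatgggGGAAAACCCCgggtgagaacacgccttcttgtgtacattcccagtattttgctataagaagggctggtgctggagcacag
Csf1, chr3:107760470-107760669, minus strand: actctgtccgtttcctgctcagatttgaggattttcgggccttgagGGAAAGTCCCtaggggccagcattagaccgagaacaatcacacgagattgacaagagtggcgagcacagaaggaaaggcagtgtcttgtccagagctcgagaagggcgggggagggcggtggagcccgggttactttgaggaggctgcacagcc
Cxcl10, chr5:92348890-92349089, minus strand: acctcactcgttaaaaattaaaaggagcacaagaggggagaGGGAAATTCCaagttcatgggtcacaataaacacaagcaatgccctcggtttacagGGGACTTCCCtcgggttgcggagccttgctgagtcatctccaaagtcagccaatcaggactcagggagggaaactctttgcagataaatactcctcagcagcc
Nfkbia, chr12:55492648-55492847, minus strand: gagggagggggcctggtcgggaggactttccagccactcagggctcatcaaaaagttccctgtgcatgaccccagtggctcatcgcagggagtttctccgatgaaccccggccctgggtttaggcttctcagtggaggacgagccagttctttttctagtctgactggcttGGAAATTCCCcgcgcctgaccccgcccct
Cxcl14, chr13:56296552-56296751, minus strand: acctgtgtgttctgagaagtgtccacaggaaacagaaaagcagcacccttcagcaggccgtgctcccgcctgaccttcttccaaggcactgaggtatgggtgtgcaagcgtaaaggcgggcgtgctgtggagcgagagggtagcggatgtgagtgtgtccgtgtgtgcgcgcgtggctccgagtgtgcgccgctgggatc
Ptgs2, chr1:150099831-150100030, plus strand: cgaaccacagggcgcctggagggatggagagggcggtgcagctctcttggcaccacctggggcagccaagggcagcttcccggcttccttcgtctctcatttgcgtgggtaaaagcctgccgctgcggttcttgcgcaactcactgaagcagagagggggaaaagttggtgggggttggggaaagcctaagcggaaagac
The match of Cxcl1 lies 71 to 61 bases before the start and holds overlapping matches on both strands. Ccl20 has a match from 80 to 71 bases before its start, Csf1 from 154 to 145 and Nfkbia from 29 to 20, while Cxcl10 has a pair, from 159 to 150 and from 103 to 94. Cxcl14 and Ptgs2 hold no match in the window. A promoter of 300 bases was found for 16 of the 25 tested members, and 6 of these held a kB match (Ccl20, Ccl27a, Csf1, Cxcl1, Cxcl10 and Nfkbia), against 4.51% of 32851 promoters. All of the 6 but Ccl27a are printed, so the 7 printed promoters hold the motif more often than the 16 do. The TATA motif TATAAA, on either strand, was in 5 of the 16 (Ccl25, Cx3cl1, Il18, Kitl and Nfkbia) and in 13.6% of all promoters. In the labelled male KO libraries the members with a kB match included 3 that rose (Ccl20, Csf1 and Cxcl1), 1 that fell (Cxcl10) and 2 that did not pass (Ccl27a and Nfkbia), where 52.0% of the tested members and 21.6% of all genes passed in either direction. In the labelled female KO libraries 0 of the 6 were higher, 2 were lower (Csf1 and Cxcl10) and 4 did not pass, where 28.0% of the tested members and 11.5% of all genes passed.

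Among the tested members, Cxcl5 and Cxcl1, which attract neutrophils through the receptor Cxcr2, had the largest differences between labelled male and female KO libraries (3.80 and 3.12 on the log2 scale). Cxcl1 (ENSMUSG00000029380.11, chr5:90891241-90893115 of GRCm38) was measured at 9.54, 10.9 and 10.5 TPM in male WT and at 53.6, 55.9 and 49.99 TPM in labelled male KO libraries. It was measured at 4.57, 4.85 and 4.77 TPM in female WT and at 5.46, 5.06 and 5.22 TPM in labelled female KO libraries. Every labelled male KO library lay far above every other library, and the female groups stood closest together. Cxcl1 rose 5.16-fold in mean TPM in males (log2 difference 2.26, SE 0.077, limma adjusted p = 7.67e-06), while its log2 difference in females was 0.12 (SE 0.099, limma adjusted p = 0.473). The interaction was 2.14 on the log2 scale (SE 0.11, limma adjusted p = 2.43e-07).

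Cxcl5 (ENSMUSG00000029371.7, chr5:90759360-90761624), a neighbour of Cxcl1 in the same gene cluster, was at 34.0, 35.6 and 33.4 TPM in male WT and at 65.4, 67.8 and 68.3 TPM in labelled male KO libraries. In females it was at 3.66, 3.44 and 3.01 TPM in WT and at 4.34, 3.42 and 3.94 TPM in labelled KO libraries. The male and female ranges were widely separated in both genotypes, and the female genotypes overlapped. Cxcl5 rose 1.96-fold in males (log2 difference 0.95, SE 0.050, limma adjusted p = 3.68e-05), and was 10.2-fold higher in male than in female WT and 17.2-fold higher in labelled male than female KO libraries (limma adjusted p = 8.46e-06 and 1.93e-06). Its log2 difference in females was 0.16 (SE 0.13, limma adjusted p = 0.480).

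Cxcl3 and Cxcl2, further Cxcr2 ligands of this cluster, lay under the filter on low values. Cxcl3 reached 1.15, 1.37 and 0.704 TPM in male WT and 3.45, 2.11 and 1.099 TPM in labelled male KO libraries, against at most 0.725 TPM in any female library. Its male WT and KO ranges overlapped, and without the filter its log2 difference was 0.58 (SE 0.32, limma adjusted p = 0.380). Cxcl2 was listed at 0, 0.301 and 0.234 TPM in male WT, 0.689, 0 and 2.38 in labelled male KO, 0.218, 0.0642 and 0 in female WT, and at 0 in all 3 labelled female KO libraries, so that the groups overlapped. The summed level of Cxcl1, Cxcl2, Cxcl3 and Cxcl5 ran from 44.7 to 48.1 TPM in male WT, 121.7 to 125.8 in labelled male KO, 7.91 to 8.57 in female WT and 9 to 9.88 in labelled female KO libraries. These genes are close paralogs, and reads could be shared among them.

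Ccl20 (ENSMUSG00000026166.14, chr1:83116766-83119167), the ligand of Ccr6 on T helper cells, B cells and dendritic cells, had the largest male difference of the tested members. Male WT libraries held 1.59, 1.63 and 1.76 TPM and labelled male KO libraries 13.8, 13.96 and 14.6 TPM, whereas female WT libraries held 3.49, 3.14 and 1.20 TPM and labelled female KO libraries 1.93, 1.18 and 4.05 TPM. The labelled male KO libraries stood apart from the other 9, and the female genotypes overlapped. Ccl20 rose 8.51-fold in males (log2 difference 2.51, SE 0.10, limma adjusted p = 1.55e-05). In females its log2 difference was -0.11 (SE 0.39, limma adjusted p = 0.888), and the interaction was 2.62 (SE 0.43, limma adjusted p = 0.00167).

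**Figure D2:**
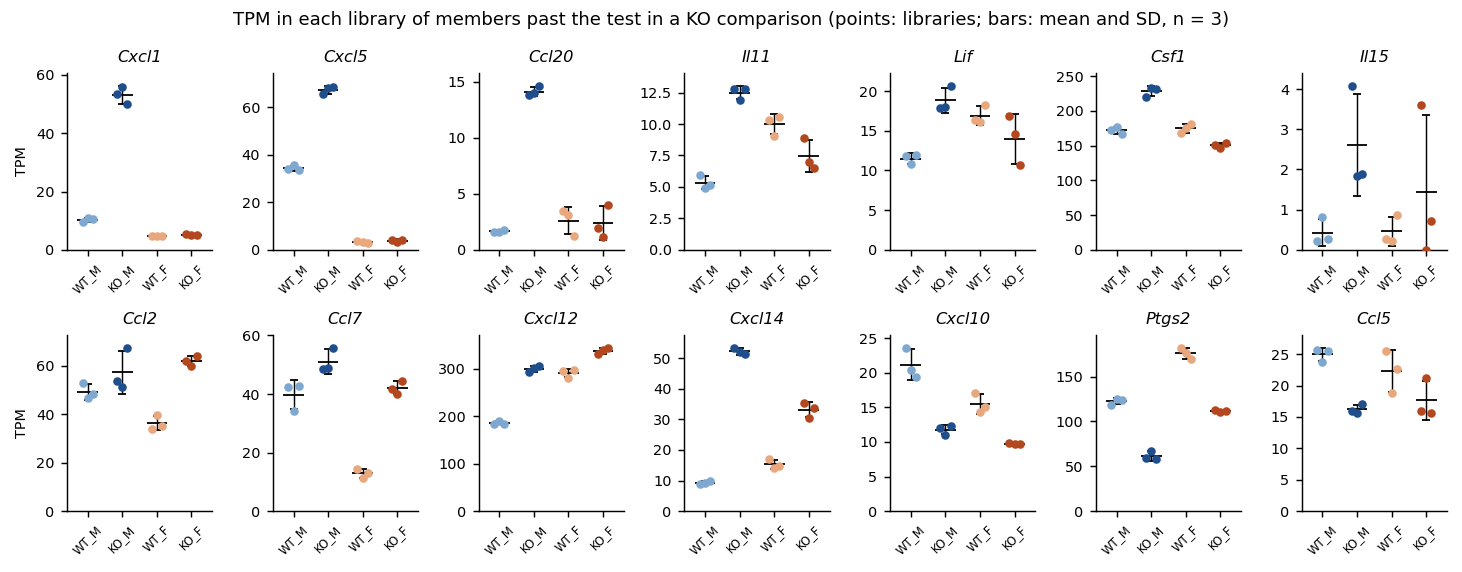
TPM of the 14 members that passed the test in a KO comparison, with 1 point per library and bars for the mean and SD (n = 3). Cxcl1 and Ccl20 were high in the labelled male KO libraries alone (at least 49.99 and 13.8 TPM), Cxcl5 separated the sexes, and the SD of Il15 in labelled female KO libraries runs below 0 and is cut there.

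Among the homeostatic chemokines, Cxcl14, a chemokine made constitutively by many epithelial and stromal cells, rose in both sexes. Its TPM (ENSMUSG00000021508.11, chr13:56288643-56296551) were 8.82, 9.25 and 9.81 in male WT and 53.5, 52.1 and 51.2 in labelled male KO libraries. In females they were 17.0, 14 and 14.8 in WT and 35.3, 30.6 and 33.6 in labelled KO libraries. KO and WT ranges did not overlap in either sex, and the order of the sexes differed between the genotypes, with males below females in WT and above them in KO. Cxcl14 rose 5.62-fold in males (log2 difference 2.37, SE 0.067, limma adjusted p = 5.65e-06) and 2.17-fold in females (log2 difference 1.07, SE 0.092, limma adjusted p = 0.000945), and the interaction was 1.30 (SE 0.11, limma adjusted p = 1.48e-05).

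Cxcl12, the ligand of Cxcr4 that retains stem cells and lymphocytes in their niches, was the most abundant chemokine in every library. Its TPM (ENSMUSG00000061353.11, chr6:117168535-117181367) were 183.9, 189.7 and 184.5 in male WT, 292.3, 302.1 and 304.9 in labelled male KO, 294.6, 280.2 and 296.3 in female WT and 330.8, 339.9 and 343.2 in labelled female KO libraries. The male WT libraries were the lowest and the labelled female KO libraries the highest, and the remaining groups overlapped in between. Cxcl12 rose 1.61-fold in males (log2 difference 0.69, SE 0.034, limma adjusted p = 2.93e-05) and 1.16-fold in females (log2 difference 0.22, SE 0.032, limma adjusted p = 0.00891). It made up 39.4% to 40.7% of the summed TPM of all chemokines in male WT, 41.9% to 43.4% in labelled male KO, 59.3% to 60.8% in female WT and 56.2% to 57.9% in labelled female KO libraries. That sum was 460.9 to 466.8 TPM in male WT, 695.8 to 721.9 in labelled male KO, 460.9 to 496.6 in female WT and 586.8 to 593.8 in labelled female KO libraries.

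The monocyte attractants Ccl2 and Ccl7, which bind Ccr2 and lie side by side on chromosome 11, rose more in females than in males. Ccl7 (ENSMUSG00000035373.2, chr11:82045712-82047525) was at 42.5, 34.2 and 42.7 TPM in male WT, 48.7, 48.8 and 55.9 in labelled male KO, 14.4, 11.4 and 13.0 in female WT and 41.6, 40.2 and 44.5 in labelled female KO libraries. The female WT libraries stood below all others, and the labelled female KO libraries reached the range of the male WT libraries. Ccl7 rose 3.24-fold in females (log2 difference 1.63, SE 0.093, limma adjusted p = 0.000201) and 1.28-fold in males (log2 difference 0.36, SE 0.10, limma adjusted p = 0.0476), with an interaction of -1.27 (SE 0.14, limma adjusted p = 0.000121). The male call did not hold when a library was left out: leaving out any of the 6 male libraries gave a limma adjusted p from 0.0675 to 0.140 for Ccl7.

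Ccl2 (ENSMUSG00000035385.5, chr11:82035571-82037453) was at 52.9, 46.7 and 48.3 TPM in male WT and at 53.6, 51.1 and 67.5 TPM in labelled male KO libraries. In females it was at 33.9, 39.5 and 35.2 TPM in WT and at 61.8, 60.0 and 63.8 TPM in labelled KO libraries. The male ranges overlapped, and the female ranges did not. Ccl2 rose 1.71-fold in females (log2 difference 0.76, SE 0.066, limma adjusted p = 0.000965), against a log2 difference of 0.21 in males (SE 0.11, limma adjusted p = 0.231), and the interaction was -0.55 (SE 0.14, limma adjusted p = 0.0196). Reads could be shared between these paralogs as well.

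Cxcl10 and Ccl5 attract T cells and are known to be induced by interferons. Cxcl10 fell in the labelled KO libraries of both sexes and Ccl5 in those of males. Cxcl10 (ENSMUSG00000034855.13, chr5:92346638-92348889) was at 23.6, 20.4 and 19.3 TPM in male WT, 12.05, 10.99 and 12.3 in labelled male KO, 17.0, 14.3 and 15.1 in female WT and 9.90, 9.70 and 9.71 in labelled female KO libraries. KO lay below WT without overlap in both sexes. On the log2 scale Cxcl10 fell by 0.79 in males (SE 0.098, limma adjusted p = 0.00182) and by 0.61 in females (SE 0.086, limma adjusted p = 0.00743). Its interaction was -0.18 (SE 0.13, limma adjusted p = 0.434), so a difference between the sexes was not shown.

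Ccl5 (ENSMUSG00000035042.2, chr11:83525778-83530518) was at 25.7, 23.8 and 25.4 TPM in male WT and at 15.9, 15.6 and 17.1 TPM in labelled male KO libraries, against 25.4, 18.8 and 22.6 TPM in female WT and 16.0, 21.2 and 15.7 TPM in labelled female KO libraries. The male groups were separate and the female groups overlapped. Ccl5 fell by 0.60 on the log2 scale in males (SE 0.071, limma adjusted p = 0.00155). Its female log2 difference was -0.32 (SE 0.15, limma adjusted p = 0.224), with an interaction of -0.27 (SE 0.17, limma adjusted p = 0.372).

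The other 6 tested chemokines did not pass in either KO comparison. Cx3cl1, the membrane-bound ligand of Cx3cr1, was the most abundant of them, at 48.6, 58.1 and 48.5 TPM in male WT, 52.0, 48.2 and 51.3 in labelled male KO, 33.5, 34.6 and 37.4 in female WT and 47.8, 41.7 and 36.8 in labelled female KO libraries. The male genotypes overlapped, and the female WT libraries were the lowest apart from an overlap with the labelled female KO libraries. Group means were 14.5 to 22.7 TPM for Ccl27a, a skin chemokine, and 9.38 to 13.8 TPM for Ccl25, a chemokine of thymus and gut. The low members Cxcl16 (1.5 to 2.80 TPM), Ccl17 (1.09 to 2.25 TPM) and Ccl24 (0.948 to 1.45 TPM) were the lowest of these. Without female WT replicate 2, Ccl27a had a log2 difference of -0.57 in females with a limma adjusted p of 0.0335, against -0.40 with 0.164 over all libraries. Without male WT replicate 2, Cxcl16 had a male log2 difference of -0.79 with a limma adjusted p of 0.0268, against -0.57 with 0.109. Ccl25, Ccl27a, Cxcl10, Cxcl16 and Il34 overlap exons of genes on the opposite strand, and the strand setting of the quantification is not stated, so their values could include reads of those neighbours.

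**Figure D3:**
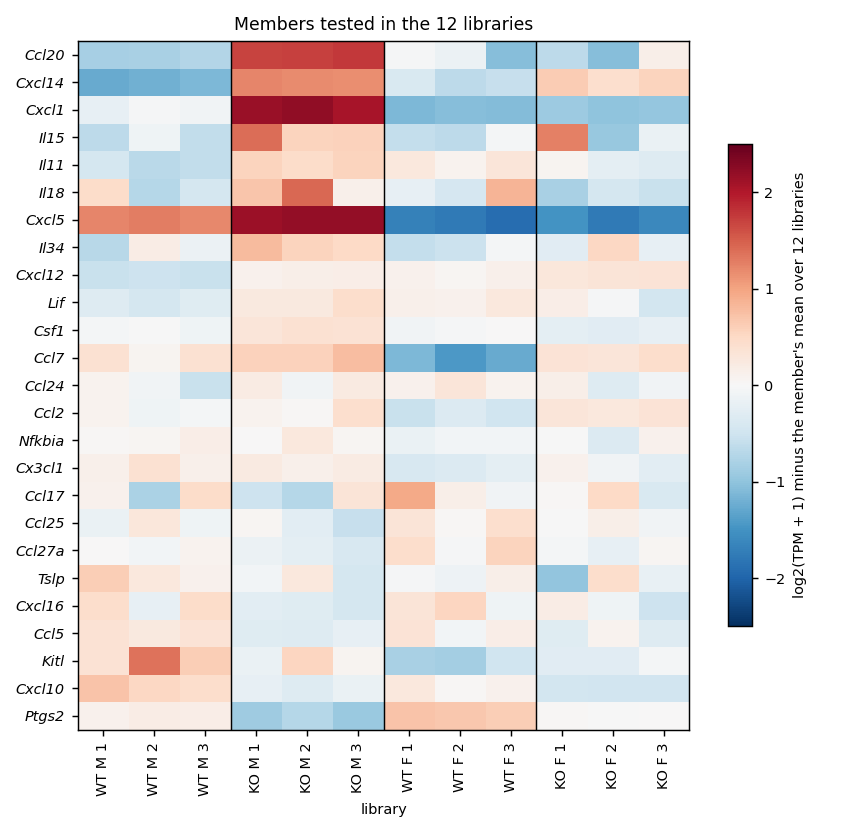
Level of the 25 tested members in each of the 12 libraries, as log2(TPM+1) minus the mean of that member over all libraries (red above, blue below). The labelled male KO libraries are the reddest for Ccl20, Cxcl14, Cxcl1 and Cxcl5, and Cxcl5 is blue in all 6 female libraries.

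Among the cytokines, Il11 and Lif, which signal through the shared receptor subunit gp130, rose in males. Il11 (ENSMUSG00000004371.14, chr7:4772373-4782859), known for its part in fibrosis, was at 5.91, 4.91 and 5.18 TPM in male WT and at 12.8, 11.9 and 12.8 TPM in labelled male KO libraries, against 10.3, 9.07 and 10.5 TPM in female WT and 8.90, 7.002 and 6.53 TPM in labelled female KO libraries. KO was above WT in every male library and below WT in every female library. Il11 rose 2.34-fold in males (log2 difference 1.09, SE 0.10, limma adjusted p = 0.000489). The female log2 difference was -0.38 (SE 0.13, limma adjusted p = 0.115), and the interaction was 1.47 (SE 0.16, limma adjusted p = 9.22e-05).

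Lif (ENSMUSG00000034394.14, chr11:4257557-4272514), which maintains embryonic stem cells in culture, was at 11.8, 10.8 and 11.96 TPM in male WT, 17.9, 18.0 and 20.6 in labelled male KO, 16.4, 16.1 and 18.3 in female WT and 16.8, 14.6 and 10.6 in labelled female KO libraries. The male groups were separate, with male WT below female WT, and the female genotypes overlapped. Lif rose 1.64-fold in males (log2 difference 0.66, SE 0.090, limma adjusted p = 0.00267), against a log2 difference of -0.28 in females (SE 0.16, limma adjusted p = 0.317), with an interaction of 0.94 (SE 0.19, limma adjusted p = 0.00639).

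The receptor subunits of this family were read beside their ligands. Il6st, which encodes gp130, was at 60.4, 69.5 and 59.9 TPM in male WT, 151.5, 184.3 and 170.9 in labelled male KO, 46.9, 49.7 and 47.4 in female WT and 53.0, 50.4 and 54.4 in labelled female KO libraries. The labelled male KO libraries stood above all others, and Il6st rose 2.67-fold in males (log2 difference 1.40, SE 0.088, limma adjusted p = 7.8e-05) with an interaction of 1.27 (SE 0.11, limma adjusted p = 1.2e-05). Osmr, the oncostatin M receptor that pairs with gp130, was at 14.1 to 17.8 TPM in male WT and 35.6 to 44.0 TPM in labelled male KO libraries, a 2.47-fold rise (log2 difference 1.25, SE 0.11, limma adjusted p = 0.000376). In females the log2 difference of Osmr was 0.33 (SE 0.14, limma adjusted p = 0.183), and the interaction was 0.92 (SE 0.19, limma adjusted p = 0.00732). The further subunits Lifr, Il11ra1 and Il6ra did not pass in males. The log2 difference was 0.030 for Lifr, the Lif receptor (SE 0.25, limma adjusted p = 0.949). It was 0.25 for Il11ra1, the Il11 receptor (SE 0.14, limma adjusted p = 0.239), and -0.17 for Il6ra, the Il6 receptor (SE 0.17, limma adjusted p = 0.525). In females these subunits did not pass either (log2 differences of 0.79, 0.26 and 0.35, limma adjusted p = 0.17, 0.210 and 0.0803). The annotated end of Il11ra1 overlaps that of Ccl27a, on the opposite strand, by a few bases. Of 22 cytokine receptor genes, 16 could be tested. In labelled male KO libraries 6 of the 16 were higher (Il6st, Osmr, Il1r1, Tnfrsf1a, Crlf2 and Sdc1) and 2 lower (Il18rap and Ptprz1), and in labelled female KO libraries 1 was higher (Sdc1) and 1 lower (Csf2ra). Over all genes tested, 10.7% were higher and 10.9% lower in males and 5.63% and 5.84% in females, so the female count is close to the share over all genes. Il1rl1, the receptor of Il33, was chosen after its values were seen: it was the most abundant of the list, at 777.2 to 829.2 TPM in male WT and 849.2 to 916.9 TPM in labelled male KO libraries against 278.0 to 285.6 and 295.5 to 303.2 TPM in the female groups, and it did not pass in either KO comparison. The median log2 difference of the 16 was 0.10 in males and 0.12 in females, against -0.02 over all genes in each sex.

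The colony-stimulating factor Csf1 (ENSMUSG00000014599.10, chr3:107741048-107760469), which sustains macrophages, moved in opposite directions in the sexes. It was at 172.3, 177.0 and 167.4 TPM in male WT and at 220.0, 233.1 and 231.5 TPM in labelled male KO libraries, against 168.7, 175.1 and 180.7 TPM in female WT and 150.2, 146.6 and 154.4 TPM in labelled female KO libraries. The WT groups overlapped, with the labelled male KO libraries above and the labelled female KO libraries below them. Csf1 rose 1.33-fold in males (log2 difference 0.40, SE 0.040, limma adjusted p = 0.000653) and fell by 0.22 on the log2 scale in females (SE 0.038, limma adjusted p = 0.0162), and the interaction was 0.62 (SE 0.055, limma adjusted p = 1.75e-05). The female call did not hold without female WT replicate 2 or 3 or labelled female KO replicate 1 or 2, where the limma adjusted p of Csf1 ran from 0.0536 to 0.0555.

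Il34, the second ligand of the Csf1 receptor, was at 0.287, 1.36 and 0.875 TPM in male WT and at 2.62, 2.06 and 1.93 TPM in labelled male KO libraries, with female group means of 0.603 and 1.16 TPM. Its male WT mean was 0.842 TPM, so Il34 too reached the filter on low values through the labelled KO libraries. The male ranges did not overlap, but the log2 difference of 0.84 missed the threshold (SE 0.25, limma adjusted p = 0.0586), and without male WT replicate 2 it was 1.04 with a limma adjusted p of 0.0380. Kitl, the stem cell factor that binds Kit, was at 7.54, 16.0 and 9.16 TPM in male WT, 4.92, 8.71 and 5.96 in labelled male KO, 2.79, 2.70 and 3.71 in female WT and 4.47, 4.44 and 5.46 in labelled female KO libraries. Male WT replicate 2 was the highest, the male ranges overlapped and the female ranges did not. Kitl had log2 differences of -0.63 in males (SE 0.29, limma adjusted p = 0.174) and 0.51 in females (SE 0.15, limma adjusted p = 0.0764), and an interaction of -1.14 (SE 0.35, limma adjusted p = 0.0542). Without male WT replicate 1 or labelled male KO replicate 2 the Kitl interaction passed, at -1.35 and -1.34 (limma adjusted p = 0.0267 and 0.0282).

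The interleukins Il15 and Il18 and Tslp, a cytokine known from epithelia, were near the lower limit of the tested range. Il15, which sustains natural killer cells and memory T cells, was at 0.230, 0.806 and 0.257 TPM in male WT and at 4.07, 1.85 and 1.89 TPM in labelled male KO libraries, against 0.279, 0.229 and 0.872 TPM in female WT and 3.61, 0 and 0.725 TPM in labelled female KO libraries. The male groups were separate, and the labelled female KO libraries were scattered around the female WT range. Il15 rose in males (log2 difference 1.30, SE 0.29, limma adjusted p = 0.0201), a call that was lost without male WT replicate 1 (limma adjusted p = 0.0640) or replicate 3 (0.0669). Its WT group means were 0.431 TPM in males and 0.460 TPM in females, so Il15 reached the filter on low values through the labelled KO libraries. The male call was also lost without that filter (limma adjusted p = 0.0694).

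Il18, a cytokine matured by the inflammasome, was at 2.71, 0.666 and 0.996 TPM in male WT, 3.40, 6.36 and 1.95 in labelled male KO, 1.37, 1.03 and 3.90 in female WT and 0.552, 0.988 and 0.854 in labelled female KO libraries. The male ranges overlapped, and the labelled female KO libraries lay below all female WT libraries by a narrow gap. Its log2 differences were 0.99 in males (SE 0.41, limma adjusted p = 0.140) and -0.68 in females (SE 0.35, limma adjusted p = 0.262). Tslp, on chromosome 18, had group means of 0.810 to 1.52 TPM and log2 differences of -0.41 for males (limma adjusted p = 0.287) and -0.25 for females (0.709).

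Ptgs2, which encodes the inducible cyclooxygenase COX-2, fell in both sexes. Its TPM (ENSMUSG00000032487.8, chr1:150100031-150108227) were 118.8, 125.1 and 123.8 in male WT and 59.1, 67.3 and 57.7 in labelled male KO libraries. In females they were 182.3, 175.9 and 169.2 in WT and 113.0, 110.2 and 111.4 in labelled KO libraries. KO was below WT without overlap in both sexes, and females were above males in both genotypes. On the log2 scale Ptgs2 fell by 0.99 in males (SE 0.065, limma adjusted p = 9.59e-05) and by 0.65 in females (SE 0.037, limma adjusted p = 0.000201), with an interaction of -0.34 (SE 0.077, limma adjusted p = 0.0130).

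Of 13 other prostaglandin genes, 9 could be tested, and 1 was higher and 2 lower in the labelled KO libraries of each sex, where 21.6% of all genes tested passed in males and 11.5% in females. Slco2a1, the transporter that takes prostaglandins into cells, fell from 39.6 to 40.9 TPM in male WT to 10.2 to 13.4 TPM in labelled male KO libraries (log2 difference -1.68, SE 0.099, limma adjusted p = 5.9e-05), and from 10.2 to 11.5 TPM to 3.63 to 3.82 TPM in females (log2 difference -1.31, SE 0.095, limma adjusted p = 0.000497). Ptgs1, the constitutive cyclooxygenase COX-1, was at 36.5, 32.1 and 32.5 TPM in female WT and at 73.2, 72.4 and 70.2 TPM in labelled female KO libraries. Ptgs1 rose 2.13-fold in females (log2 difference 1.07, SE 0.060, limma adjusted p = 0.000199), while its male means were 21.7 TPM in WT and 15.2 TPM in labelled KO libraries. Ptgis, the prostacyclin synthase, rose in males (log2 difference 1.20, SE 0.16, limma adjusted p = 0.00282) and fell in females (log2 difference -0.68, SE 0.088, limma adjusted p = 0.00499). Pla2g4a, the phospholipase that frees arachidonic acid, fell in males (log2 difference -0.50, SE 0.057, limma adjusted p = 0.00119).

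Nfkbia (ENSMUSG00000021025.8, chr12:55489410-55492647), whose promoter with its kB match is printed above, did not pass in either KO comparison. Its TPM were 53.5, 54.2 and 58.8 in male WT, 52.6, 63.4 and 54.3 in labelled male KO, 46.9, 50.3 and 49.9 in female WT and 52.3, 41.1 and 56.5 in labelled female KO libraries. KO and WT overlapped in both sexes, with log2 differences of 0.028 in males (SE 0.081, limma adjusted p = 0.845) and 0.017 in females (SE 0.11, limma adjusted p = 0.946).

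Of 25 further NF-kB regulators and targets, all of which could be tested, 3 were higher (Bcl3, Traf1 and Vcam1) and 1 lower (Tnfaip3) in labelled male KO libraries, and 1 was higher (Vcam1) and 2 lower (Tnfaip3 and Relb) in labelled female KO libraries. Traf1 reached the filter on low values through the labelled male KO libraries, where its mean was 2.39 TPM. The other group means of Traf1 were 0.566 to 0.905 TPM, so its male call comes from the group that let it be tested. Over all genes tested, 21.6% passed in males and 11.5% in females, in either direction, so 4 of the 25 is below the share over all genes in males and 3 of the 25 is close to it in females. The list's median log2 difference was 0.0053 in males and -0.060 in females. Bcl3, an atypical nuclear member of the IkB family, was at 5.23, 7.01 and 7.35 TPM in male WT and at 21.8, 21.1 and 29.0 TPM in labelled male KO libraries, while all 6 female libraries lay between 6.61 and 10.3 TPM. Bcl3 rose 3.67-fold in males (log2 difference 1.73, SE 0.16, limma adjusted p = 0.000511), with an interaction of 1.79 (SE 0.25, limma adjusted p = 0.000594). Tnfaip3, the ubiquitin-editing inhibitor A20, fell in both sexes (log2 difference -0.83 in males and -0.46 in females, SE 0.14 and 0.11, limma adjusted p = 0.00587 and 0.0385). Vcam1, the adhesion molecule for leukocyte integrins, rose 1.39-fold in males (limma adjusted p = 0.00485) and 2.12-fold in females (limma adjusted p = 0.000241).

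**Figure D4:**
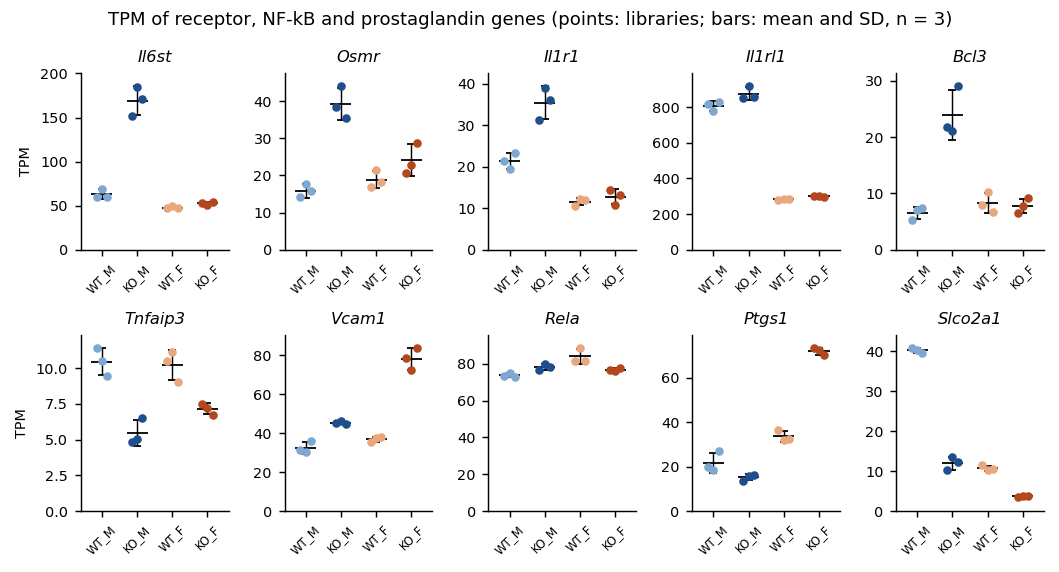
TPM of receptor, NF-kB and prostaglandin genes that stand beside the chemokines and cytokines, with 1 point per library and bars for the mean and SD (n = 3). Il6st and Bcl3 are highest in the labelled male KO libraries (at least 151.5 and 21.1 TPM), and Ptgs1 is highest in the labelled female KO libraries (at least 70.2 TPM).

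Of 23 chemokine receptors, 2 could be tested. The receptors named above for the chemokines (Cxcr2, Ccr6, Cxcr4, Ccr2 and Cx3cr1) had a mean under 1 TPM and were not. The scavenging receptor Ackr3, which binds Cxcl12, did not pass in either KO comparison. Ackr3 was at 16.2, 17.8 and 16.2 TPM in male WT, 21.3, 19.6 and 18.2 in labelled male KO, 11.8, 10.9 and 10.2 in female WT and 13.0, 11.1 and 9.37 in labelled female KO libraries. Every male library lay above every female library, and Ackr3 was 1.52-fold higher in male than in female WT and 1.76-fold higher in labelled male than female KO libraries (limma adjusted p = 0.00670 and 0.00708).

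Some members already differed between the sexes in WT. Of the 25 tested, 12 passed between male and female WT libraries, against 12.8% of all genes tested, with 7 higher in males (all genes 6.26%) and 5 lower (all genes 6.56%). The members higher in male WT were Cxcl5, Ccl7, Kitl, Cxcl1, Cx3cl1, Ccl2 and Cxcl10, with log2 differences from 3.02 for Cxcl5 to 0.42 for Cxcl10. The members lower in male WT were Il11, Cxcl14, Cxcl12, Lif and Ptgs2, with log2 differences from -0.79 for Il11 to -0.52 for Ptgs2. In the labelled KO libraries 10 of the 25 passed between the sexes, against 16.6% of all genes tested, with 8 higher in males (all genes 8.17%) and 2 lower (all genes 8.39%). Those higher were Cxcl5, Cxcl1, Ccl20, Il18, Il11, Cxcl14, Csf1 and Ccl7, from a log2 difference of 3.80 for Cxcl5 to 0.27 for Ccl7, and those lower were Ptgs2 (-0.85) and Cxcl12 (-0.17). These comparisons share their libraries with the KO comparisons and are not independent of them. Il11 and Cxcl14 were lower in males in WT (-0.79 and -0.66) and higher in males in KO (0.68 and 0.64), while Cxcl1 was higher in males in both (0.98 in WT and 3.12 in KO).

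Several calls between the sexes depended on single libraries and on the processing. The Cxcl10 difference in WT had a limma adjusted p of 0.0378, and above 0.05 without male WT replicate 1, 2 or 3 or female WT replicate 2 or 3 (0.0580 to 0.112). The Il18 difference in the labelled KO libraries had a limma adjusted p of 0.0346, and 0.0754 to 0.104 without labelled male KO replicate 1 or any labelled female KO replicate. The Ccl7 difference in the labelled KO libraries, with a limma adjusted p of 0.0464, was lost without any of the 6 libraries (0.0629 to 0.134). Over all the alternatives described below, these calls were lost in 7 of 14 for Cxcl10, 6 of 13 for Il18 and 9 of 14 for Ccl7.

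The remaining 32 members had a mean under 1 TPM. Of these, 3 reached 1 TPM in a library: Cxcl3 and Cxcl2, described above, and Ccl9, a myeloid chemokine, which was highest at 1.40 TPM in a female WT library. A further 15 were above 0 somewhere without passing 0.808 TPM in any library, namely Csf3, Il6, Il33, Csf2, Ccl28, Ccl4, Ccl11, Cxcl15, Cxcl9, Ccl1, Il1a, Cxcl17, Ccl21a, Tnf and Ccl22. The other 14 identifiers were listed at 0 in every library and stood for Ccl3, Ccl6, Ccl8, Ccl12, Ccl19, Ccl21a, Ccl21b, Ccl26, Ccl27, Ccl27b, Cxcl13 and Il1b, some of them under more than 1 identifier. Among them, 5 lay on unplaced scaffolds (for Ccl19, Ccl21a, Ccl21b and Ccl27). Reads could be shared between such copies, so a listed 0 need not mean that a gene was silent. The classical inflammatory cytokines Il6, Il1a, Il1b and Tnf were therefore under 1 TPM in all 12 libraries, at a depth that TPM do not show.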

How the data were processed

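Polyadenylated RNA of 12 immortalized MEF cultures, 3 per group, was sequenced. For quantification the authors ran Salmon (version 1.10.1 in the submitters' processing notes) with the GRCm38 transcriptome, and the deposited values are TPM of 34866 genes. No column of values was left unused. Read totals cannot be had from TPM, and with the depth unknown no counting error is given.

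Identifiers were matched to GENCODE symbols of GRCm38, for 99.4% of them. Members were chosen by symbol, and 1 match annotated as a polymorphic pseudogene was left out. The members and the gene lists were chosen with earlier results of these data known.

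The study's methods name DESeq2, a model for counts, which TPM are not. Differences were therefore tested with limma (version 3.58.1, R 4.3.3) after transformation to log2(TPM+1), with its variance trend, and 12504 genes whose mean over the libraries reached 1 TPM entered. A gene was called where its Benjamini-Hochberg adjusted p, taken over every gene tested, lay under 0.05. KO was compared with WT within each sex, and the sexes within each genotype, in fits of the groups compared. The interaction was fitted over all 12 libraries. The code was tested on simulated data. SE is the standard error of a log2 difference, fold changes are ratios of mean TPM, and n is 3 per group throughout.

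Every member that could be tested was named with values, members under the filter where a library reached 1 TPM, and of the related lists at most 5 genes called in a KO comparison. Crlf2, Sdc1, Il18rap, Ptprz1, Csf2ra, Ackr3, Il1rl1, Lifr, Il11ra1 and Il6ra are named beyond this rule, chosen after their values were seen, and 1 gene of the related lists is not reported here. Promoters, 250 bases before to 50 after each start, came from RefSeq (GRCm38.p6). The alternatives were a smaller pseudocount (0.1), no filter, a stricter filter (5 TPM), scaling by median ratios or by quantiles, no variance trend, all libraries in 1 fit, a replicate block, and leaving out each library.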

Additional observations from a re-analysis of the deposited data

Results flagged for a closer look

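The KO difference of 11 of the 25 tested members differed between the sexes by the interaction term of limma (KO difference in males minus that in females, on the log2(TPM+1) scale). Over all genes tested, 13.0% passed this test. The term was positive for 8 of the 11 (all genes 6.70%): 2.62 for Ccl20, 2.14 for Cxcl1, 1.47 for Il11, 1.30 for Cxcl14, 0.94 for Lif, 0.78 for Cxcl5, 0.62 for Csf1 and 0.47 for Cxcl12. It was negative for 3 (all genes 6.33%): -1.27 for Ccl7, -0.55 for Ccl2 and -0.34 for Ptgs2. Ccl20, Cxcl1, Cxcl5, Il11 and Lif passed the KO test in males and not in females, Ccl2 in females and not in males, and Csf1 in opposite directions. Cxcl12, Cxcl14, Ccl7 and Ptgs2 passed in the same direction in both sexes with a different size. Without 1 library, the male call of Ccl7 was lost in every fit and the female call of Csf1 in some.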

How the results depend on the processing

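Of 53 called values of single members, 44 held in every alternative, 9 were lost in at least 1 and 0 were reversed. The female KO count of 1434 genes was 670 with the replicate block and 774 to 835 without 1 library. Without 1 library, 1037 to 1243 genes were called between the sexes in WT (1603 with all) and 1328 to 1824 in KO (2070 with all). The counts of members called stayed within 1.5 times. The replicate numbers did not pair libraries (correlations of deviations from -0.0571 to 0.0779). With the replicate block Kitl was called in males (limma adjusted p = 0.0242) and Ccl2 was lost between the sexes in WT (0.0501). Ccl7 in males was also lost without the filter (limma adjusted p = 0.140), with either scaling (0.0560 and 0.0566) and without the trend (0.0805). Il15 in males was lost without the filter (0.0694) and with all libraries in 1 fit (0.0636), Csf1 in females without the trend (0.0566), Cxcl12 between the sexes in KO without the trend (0.0741) and Kitl between the sexes in WT without the filter (0.0645). Some values gained a call: the Kitl interaction with the smaller pseudocount, the stricter filter, either scaling or the replicate block (limma adjusted p from 0.0315 to 0.0497), Il34 in males with quantiles (0.0463) or all libraries in 1 fit (0.0495), and Il11 in females with all libraries in 1 fit (0.0483). The causes were not tested. Without 1 library, values that had not been called changed sign within these ranges of log2 differences: Ccl17 from -0.59 to 0.031 in males and from -0.50 to 0.026 in females, Cx3cl1 from -0.073 to 0.056 in males, Nfkbia from -0.053 to 0.080 in males and from -0.077 to 0.15 in females, Ccl20 from -0.45 to 0.16, Il15 from -0.13 to 0.98 and Tslp from -0.59 to 0.12 in females. The mean of at least 5 TPM left out the low members and gave no value for them.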
